A study of Saccharomyces cerevisiae with 4 samples.

Results

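The genes described here encode the proteins of the small (40S) subunit of the cytosolic ribosome of Saccharomyces cerevisiae, from RPS0A to RPS31 together with ASC1. All 57 genes on this list were found among the 5659 genes annotated on the array, and their 268 probes were taken from 41480 nuclear probes by gene name alone. Binding was measured by ChIP-chip: a tagged protein is cross-linked to DNA, pulled down with an antibody, and the DNA recovered is hybridised to a tiling array beside DNA of the strain's whole cell extract. Each value is log2(ChIP / whole cell extract), so that 0 is the array's median probe, and a gene value is the mean over the probes annotated to that gene.

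Nup157 and Nup170 are paralogues that build the inner ring of the nuclear pore. The 4 groups were Nup157 tagged in wild type, Nup170 tagged in wild type, Nup170 tagged in a strain labelled sir4∆ (sir4∆::natR), and Nup170 tagged in a strain labelled yku70∆ (yku70∆::natR), each with 1 library. Every strain, by its label, was MATa and carried his3, leu2, ura3 and lys2 deletions and a 9xMyc tag with the hphR marker on the pore gene named. All were grown in YPD at 30 °C, cross-linked with formaldehyde and precipitated with an anti-Myc antibody. SIR4 encodes a protein of silent chromatin at telomeres and mating loci, and the YKU70 product is part of Ku, which holds chromosome ends. The groups were set against each other to ask where each paralogue contacts the genome and how Nup170 contacts differ in the strains labelled as deletions. No untagged strain was analysed here, so the signal that the antibody or open chromatin gives without a tag was not measured.

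The small subunit binds the messenger RNA and decodes it, while the large subunit joins the amino acids. In growing yeast its genes are among the most heavily transcribed by RNA polymerase II, under Rap1, Fhl1, Ifh1 and Sfp1, and most exist as A and B copies of nearly the same coding sequence. Many of them carry an intron close to the start of the coding sequence, although introns are rare in this yeast. Several nuclear pore proteins have been found at active genes in yeast.

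Each library was hybridised on 2 arrays, which the labels do not give as separate cultures. They are therefore repeat measurements of 1 library, no p-value was computed, and differences between groups have no replicate check. Pearson's r between the hybridisations over the 57 gene values came to 0.72 with Nup157, 0.85 with Nup170 in wild type, 0.82 in the library labelled sir4∆ and 0.89 in the library labelled yku70∆. The genes share an array and genes are not independent replicates. The deleted gene was checked in the whole cell extract channel: over SIR4 all 15 probes of the library labelled sir4∆ lay below the mean of the other libraries, at 70.6% of their signal. Over YKU70 the 7 probes of the library labelled yku70∆ had a median of 96.6% of the others' signal, so these data do not show the loss of YKU70 that the label states. Among the probes of the 57 genes, 267, 267, 266 and 266 were used in the libraries in the order above, and 3, 3, 3 and 4 were near the level of blank spots in the extract channel. The extract signal of these probes lay close to the array median, between -0.12 and 0.00 on the log2 scale.

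Small subunit genes stood above the rest of the genome in all 4 libraries, and they did so most evenly with Nup170. In the Nup170 wild-type library their median gene value was 0.60 (95% order-statistic interval over genes 0.48 to 0.66), against -0.02 for all genes. Both hybridisations placed 56 of the 57 genes above 0, against 31.4% of all genes, although the first gave a median of 0.76 and the second one of 0.41. Gene values of 0.32 or more on the log2 scale, called enriched here, were reached by 51 of the 57 genes, against 5.94% of all genes, and 47 genes lay in the top 5% of the genome. The median member sat at the 97.5th percentile.

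The libraries labelled sir4∆ and yku70∆ gave a similar place in the genome at lower ratios. With the label sir4∆ the median was 0.38 (0.31 to 0.42), with 0.28 and 0.44 in the hybridisations, and 35 genes were enriched by that threshold, against 4.05% of all genes. With the label yku70∆ it was 0.48 (0.43 to 0.55), with 0.52 and 0.45 in the hybridisations, and 47 genes were enriched, against 5.3% of all genes. The median member sat at the 96.9th and 97.0th percentile in these libraries, about where it sat in wild type.

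Nup157 gave a median of 0.41 (0.29 to 0.51), with 0.35 and 0.49 in the hybridisations, against -0.01 for all genes. The background was wider here: 34 small subunit genes were enriched while 19% of all genes were, and the median member sat at the 86.4th percentile. Both hybridisations placed 49 genes above 0, against 38.5% of all genes. The spread among the 57 genes was also wider with Nup157, from -0.47 to 1.02.

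The 82 genes of the large subunit, RPL and RPP, had medians of 0.36 with Nup157 and 0.58 with Nup170 in wild type, and of 0.37 and 0.47 in the libraries labelled sir4∆ and yku70∆. Each lies within the interval of the small subunit median in its library. In all 4 libraries 24 of the 57 small subunit genes were enriched, against 2.74% of all genes. In all 3 Nup170 libraries 34 of the 57 were, against 3.77% of all genes. The genes enriched in none were RPS21A, RPS22B, RPS27B and RPS28B, which were picked out after their values were seen.

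**Figure D1:**
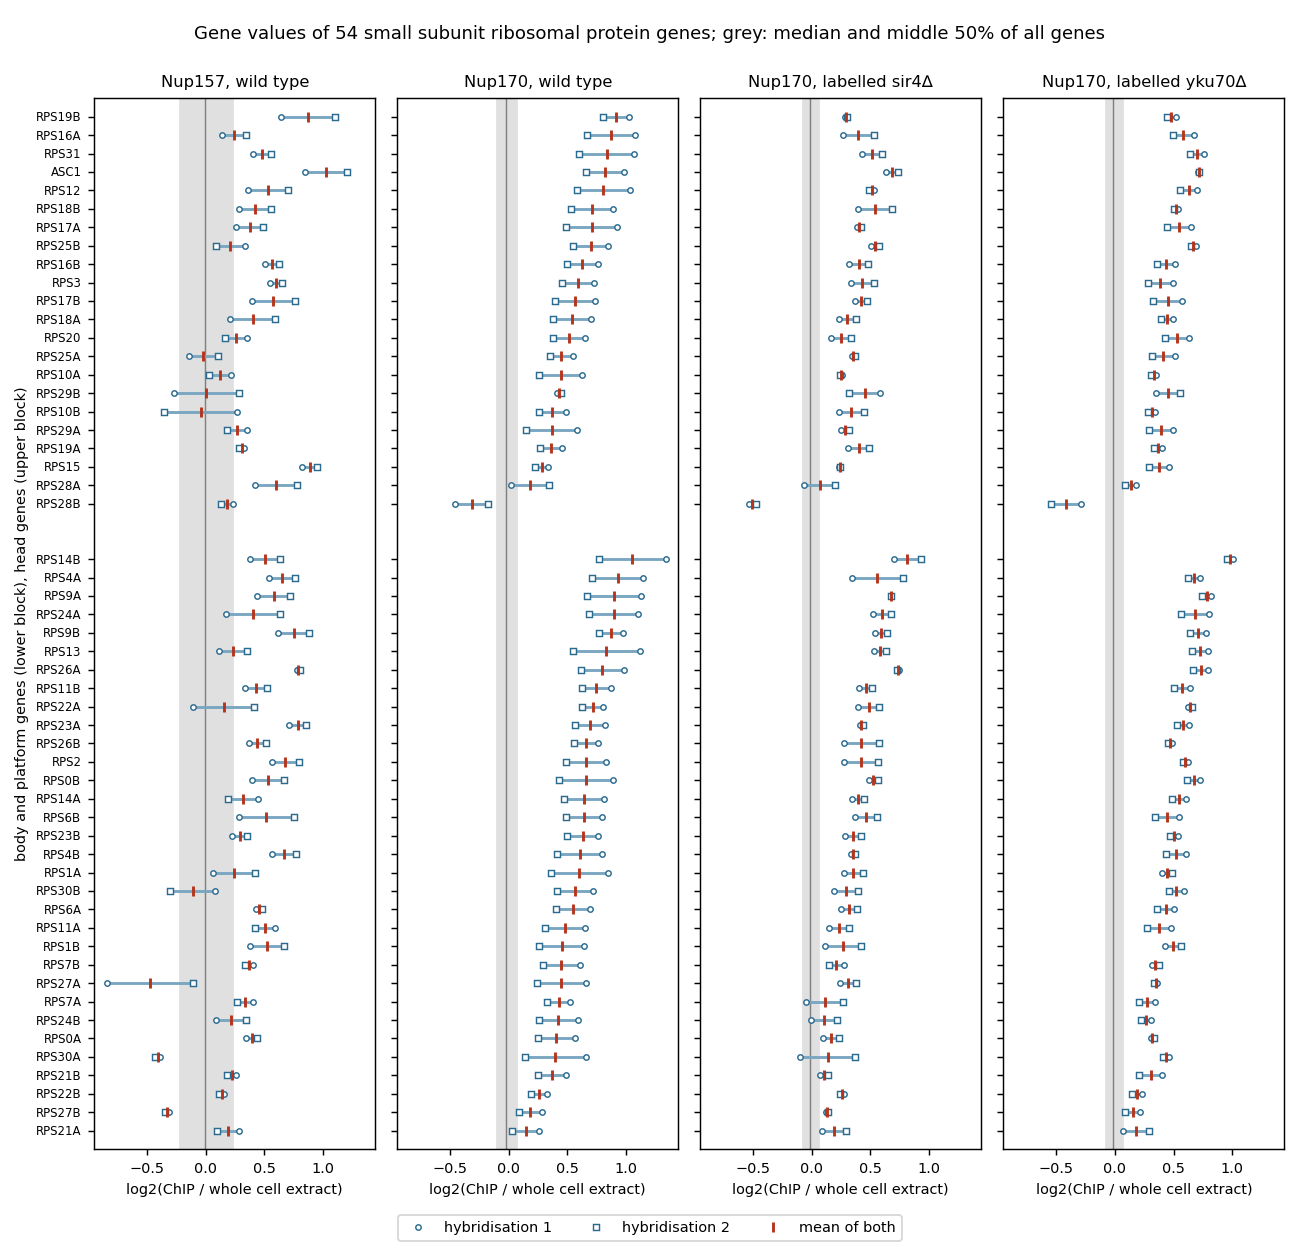
The gene values of 54 of the 57 small subunit genes are shown in 4 panels, 1 for each library, with log2(ChIP / whole cell extract) on the x axis. Circles and squares are the 2 hybridisations, red marks their mean, and grey the median and middle 50% of all genes. In the Nup170 wild-type panel every gene but RPS28B lies above 0, while in the Nup157 panel 6 genes have means below 0.

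The authors' deposited marks of bound regions belong to these same arrays and are no separate support. They covered more probes of small subunit genes with Nup170 than with Nup157. The lower-side SD of all probes (median minus 16th percentile) was 0.50 with Nup157 and 0.22 with Nup170 in wild type. Its part in the marks was not tested. Of the 268 probes of small subunit genes, 203 lay in a region marked bound in the Nup170 wild-type library, or 75.7% against 5.38% of all probes. The share was 50.7% in the library labelled sir4∆ against 4.72%, and 70.9% in the library labelled yku70∆ against 5.34%. With Nup157 it was 18.7% against 5.17%. For the label sir4∆ the authors' combined ratio weights the first hybridisation by 97.6%. These genes had a median of 0.28 in that hybridisation and of 0.44 in the second. Whether the marks follow that weighting was not tested. Counted by gene, 54 small subunit genes held at least 1 marked probe with Nup170 in wild type, against 14.5% of all genes, and 25 did so with Nup157, against 17.3%. RPS25B on chromosome 12 has the most probes of the 57 genes, and all 11 were marked in the Nup170 wild-type library. RPS25B encodes a head protein used in initiation from internal entry sites, and 8 of its probes lie downstream of its coding sequence.

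Among single genes, the highest Nup170 value belonged to RPS14B, which encodes a protein of the platform and whose product limits splicing of its own transcript. RPS14B (YJL191W, probes at chr10:73702-74684 in the coordinates of the files, for which no source used here names a genome build) read 1.05 in the Nup170 wild-type library. It read 0.81 in the library labelled sir4∆, 0.98 in the library labelled yku70∆ and 0.51 with Nup157. Its value was the highest of the 57 in each Nup170 library, and all 5 of its probes were marked bound there. The convergent neighbour of RPS14B is another small subunit gene, RPS22A, a body protein gene, which read 0.71, 0.49 and 0.64 in the Nup170 libraries in the same order and 0.15 with Nup157. Its promoter probe read -0.66 with Nup157 and 0.44 with Nup170 in wild type, and of the 3 probes of RPS22A this one differed most between the proteins.

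RPS4A (YJR145C), a body protein gene, read 0.93 with Nup170 in wild type, 0.56 and 0.68 in the libraries labelled sir4∆ and yku70∆, and 0.65 with Nup157. RPS9A, whose protein lies at the mRNA entry channel, read 0.90, 0.67, 0.78 and 0.58 in that order. RPS24A, a body protein gene, read 0.89, 0.60, 0.68 and 0.41. In these 3 genes the Nup170 wild-type value was the highest of the 4 libraries, and Nup157 gave the lowest value in RPS9A and RPS24A. RPS26A (YGL189C), whose protein lies at the mRNA exit, read 0.80 in wild type and 0.73 in both deletion-labelled libraries, but from 1 promoter probe.

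RPS19B (YNL302C), a head protein gene needed for maturation of the subunit's RNA, is the uncertain member of the highest 5. It read 0.91 with Nup170 in wild type and 0.87 with Nup157, against 0.29 and 0.48 in the libraries labelled sir4∆ and yku70∆. A single downstream probe near blank level read 2.80 and 3.67 in the first 2 libraries and was marked for exclusion in the others. Without near-blank probes RPS19B read 0.64 with Nup170 in wild type and 0.47 with Nup157.

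Upstream probes carried the peak of several high genes. RPS16A (YMR143W), a head protein gene whose protein has a tail that reaches the decoding centre, had its highest probe 332 bp before the coding start, in the promoter it shares with RPL13B. That probe read 1.99 with Nup170 in wild type, 0.77 and 1.20 in the libraries labelled sir4∆ and yku70∆, and 1.45 with Nup157. RPS24A had 1.77 at 382 bp before the start and 0.50 and 0.41 inside the gene with Nup170 in wild type. RPS4A had 1.69 at 314 bp before the start and between 0.61 and 0.91 inside. These probes stood well above the upstream median given below, and they were singled out after their values were seen.

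At the low end, RPS28B was the only small subunit gene below 0 with Nup170, and it was so in all 3 libraries: 56 of 57 genes were above 0 in each, against 43.1%, 46.3% and 45.9% of all genes. RPS28 binds next to the mRNA exit, and the Rps28 protein promotes decay of the RPS28B messenger. RPS28B (YLR264W, chr12:673024-673083) read -0.31 in wild type, -0.50 and -0.41 in the libraries labelled sir4∆ and yku70∆, and 0.18 with Nup157. All 6 Nup170 hybridisations lay below 0 and both Nup157 hybridisations above it. The value rests on 1 promoter probe 77 bp before the coding start, and no probe inside RPS28B was on the array. RPS28A, also with 1 upstream probe, read 0.19 with Nup170 in wild type, 0.07 and 0.14 in the other 2 Nup170 libraries, and 0.60 with Nup157. Both RPS28 copies thus read higher with Nup157 than with Nup170.

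The other low genes in the Nup170 wild-type library were above 0. RPS21A, a body protein gene, read 0.14, with 0.19 and 0.18 in the libraries labelled sir4∆ and yku70∆ and 0.19 with Nup157. RPS27B, which encodes a zinc-binding body protein, read 0.19 there, 0.13 and 0.15 in the other Nup170 libraries and -0.33 with Nup157. RPS22B read 0.26, 0.26, 0.19 and 0.14 in the same order, and its low mean comes with the reach of its annotation. Of its 9 probes, 5 lie 763 to 1895 bp upstream and read between -0.32 and 0.02 with Nup170 in wild type, while the other 4 read between 0.67 and 0.81. In the library labelled sir4∆ the lowest genes after the RPS28 pair were RPS24B and RPS21B, both at 0.10.

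With Nup157 the order of the genes was another. ASC1, the yeast RACK1 scaffold on the head of the subunit, was highest at 1.02, with 0.84 and 1.20 in the hybridisations. RPS15 (YOL040C), which encodes a head protein needed for export of the subunit, read 0.89. ASC1 was also high with Nup170, at 0.82, 0.68 and 0.71 in wild type and the libraries labelled sir4∆ and yku70∆. RPS15 was not: it read 0.28, 0.24 and 0.38 there.

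Below 0 with Nup157 were 6 small subunit genes (51 were above 0, against 49.2% of all genes), all of which were above 0 in the 3 Nup170 libraries, against 9.17% of all genes with that pattern. RPS27A (YKL156W) was lowest at -0.47, with -0.84 and -0.11 in the hybridisations, and read 0.45, 0.31 and 0.35 in the Nup170 libraries. RPS30A, whose protein is a small body protein, read -0.40 with Nup157, with -0.38 and -0.43 in the hybridisations, and 0.40, 0.14 and 0.44 with Nup170. It rests on 2 probes of opposite sign with Nup157, at -1.10 inside the gene and 0.29 upstream. RPS27B, RPS30B, RPS10B and RPS25A were the other four, at -0.33, -0.11, -0.04 and -0.02. In RPS10B, RPS25A and RPS30B the Nup157 hybridisations fell on both sides of 0. By gene value, both copies of RPS27 and of RPS30 were therefore below 0 with Nup157.

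Over the 57 genes the gene values of the 3 Nup170 libraries were alike, with Pearson's r from 0.86 to 0.93. Between Nup157 and Nup170 in wild type r was 0.43. These are descriptions across genes that share probes and arrays, and the same figures over all genes were 0.89 to 0.93 and 0.49.

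Of the 9 genes with no second copy, 7 were enriched with Nup157 and 8 with Nup170 in wild type. In the library labelled sir4∆ 7 were, and in the library labelled yku70∆ all 9. Of all genes, 19%, 5.94%, 4.05% and 5.3% were enriched in that order. Of the 48 small subunit genes with a second copy, 27, 43, 28 and 38 were. For the 9 genes, values were as follows. Their medians were 0.60 with Nup157, 0.66 with Nup170 in wild type, and 0.43 and 0.60 in the libraries labelled sir4∆ and yku70∆. RPS31, a fusion of ubiquitin to a head protein, read 0.83 with Nup170 in wild type, 0.51 and 0.70 in the deletion-labelled libraries and 0.48 with Nup157. RPS13, a body protein gene, read 0.83, 0.58 and 0.73 with Nup170 and 0.24 with Nup157. RPS12, a head protein gene, read 0.80, 0.51 and 0.63 with Nup170 and 0.53 with Nup157.

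RPS2 and RPS3 encode proteins at the mRNA entry channel. RPS2 read 0.66, 0.42 and 0.60 with Nup170 and 0.68 with Nup157, and RPS3 read 0.59, 0.43 and 0.39 with Nup170 and 0.60 with Nup157. In both genes Nup157 and Nup170 in wild type overlapped between hybridisations. RPS20, a head protein gene, read 0.51, 0.25 and 0.53 with Nup170 and 0.26 with Nup157. Genes of the head and of the body and platform did not part: the 23 head genes had a median of 0.56 and the 34 others 0.61 with Nup170 in wild type.

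The A and B copies of a protein share a coding sequence but not their flanks, and 24 pairs could be compared. In the Nup170 wild-type library the copies differed by a median of 0.20, against 0.22 for any 2 of the 57 genes. In the library labelled sir4∆ both figures were 0.17. The figure for copies was 0.12 against 0.17 in the library labelled yku70∆, and 0.18 against 0.28 with Nup157. Whether a probe inside one copy also catches DNA of the other was not tested, and 4 genes rest on a single probe.

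By a threshold of 0.4 on the log2 scale, 5 pairs differed with Nup170 in wild type. RPS14B exceeded RPS14A by a difference of -0.41 for A minus B, with -0.52 and -0.30 in the hybridisations. RPS24A exceeded RPS24B by 0.47, with 0.51 and 0.43, and RPS22A exceeded RPS22B by 0.45, with 0.47 and 0.43. RPS28A exceeded RPS28B by 0.50. In these 4 pairs the order was the same in all 6 Nup170 hybridisations, which held for 13 of the 24 pairs. RPS19A minus RPS19B was -0.55, but 0.11 and -0.11 in the libraries labelled sir4∆ and yku70∆, where the near-blank probe named above was left out. Without near-blank probes RPS19A still read lower than RPS19B in wild type, at 0.36 against 0.64.

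The distant upstream probes of RPS22B enter its difference from RPS22A. Within RPS22A the coding probes read 0.67 and 1.04 with Nup170 in wild type, and within RPS22B 0.67 and 0.69. The RPS24 difference lies mostly in the probe upstream of RPS24A that read 1.77, since the probes inside RPS24A read 0.41 and 0.50 and the one inside RPS24B 0.73. In the RPS14 pair the probes inside RPS14B read 0.80 to 1.38 and those inside RPS14A 0.19 to 0.99.

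Least apart with Nup170 in wild type were RPS7 at -0.02 and RPS9 at 0.03, for A minus B. Both copies of RPS9 were among the highest genes, at 0.90 and 0.87, and both copies of RPS7, which encode a body protein, were lower, at 0.42 and 0.45. The order of the copies was the same in both hybridisations of the Nup170 wild-type library for 21 of 24 pairs and of the Nup157 library for 13. Across the 3 Nup170 libraries 18 of 24 pairs kept their order, and in all 8 hybridisations 6 pairs did: RPS0, RPS23, RPS24, RPS26, RPS28 and RPS30. RPS16 had an A minus B of -0.32 with Nup157 and of 0.24 with Nup170 in wild type. It was 0.15 in the library labelled yku70∆, and in the library labelled sir4∆ the hybridisations gave -0.05 and 0.04. RPS23, whose protein reaches the decoding centre, had 0.49 with Nup157 and 0.06 with Nup170 in wild type.

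**Figure D2:**
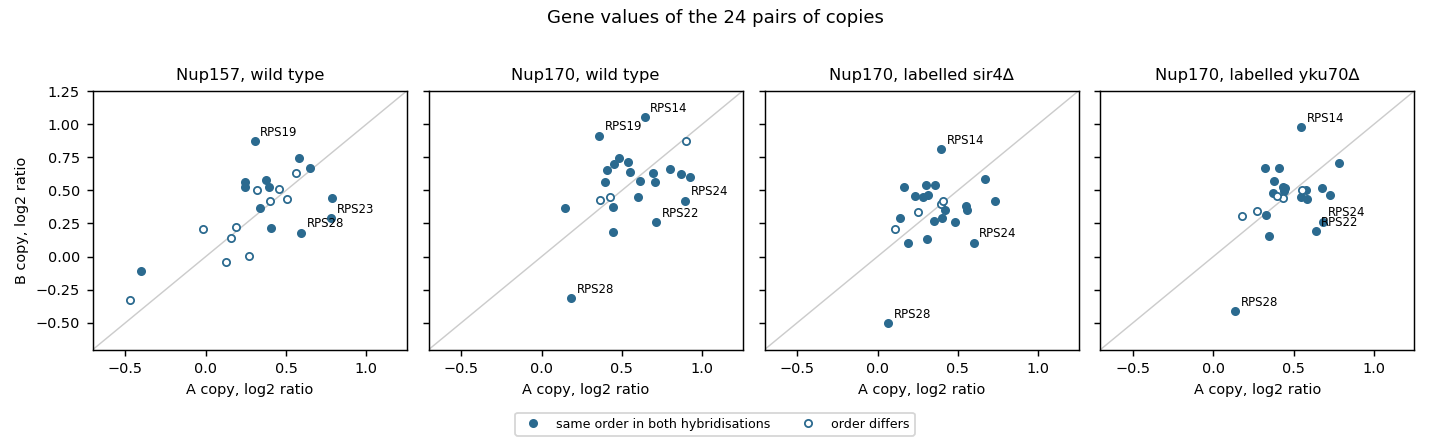
Each point is 1 of the 24 pairs of copies, with the gene value of the A copy on the x axis and of the B copy on the y axis, both as log2(ChIP / whole cell extract), in each library. Filled points kept their order in both hybridisations, and named pairs differ by 0.4 or more: RPS14, RPS24 and RPS28 do so in all 3 Nup170 panels.

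Within the genes, medians were higher over the coding sequence than upstream of it. With Nup170 in wild type the 128 probes inside small subunit genes had a median of 0.65 (0.59 to 0.72) and 127 of them were above 0. The 107 upstream probes had a median of 0.44 (0.38 to 0.55), and 32 downstream probes one of 0.77 (0.44 to 0.90). Probes of other genes read 0.02 inside, -0.11 upstream and 0.10 downstream, so the small subunit genes stood higher in all 3 positions.

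In the libraries labelled sir4∆ and yku70∆ the inside medians were 0.47 and 0.56 and the upstream medians 0.18 and 0.31. With Nup157 they were 0.56 and 0.29, a difference of 0.27 that fell to 0.064 with each array's trend of ratio on signal removed. Taken gene by gene over the 50 small subunit genes with both kinds of probe, inside minus upstream had a median of 0.18 with Nup170 in wild type and was above 0 in 34. Other genes had a median of 0.17 and 75.1% above 0, so the excess of inside over upstream was of the size seen in the rest of the genome. In the library labelled sir4∆ it was 0.30 in small subunit genes and 0.09 in other genes, and in the library labelled yku70∆ 0.23 and 0.13. In each of these libraries it was above 0 in 41 of the 50 genes, against 66.9% and 74.4% of other genes. With Nup157 it was 0.21 (-0.13 to 0.54), above 0 in 31 of the 50 genes against 62.6% of other genes. Taken over probes with the label sir4∆, inside minus upstream was 0.37 in the first hybridisation and 0.18 in the second.

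Probes near the coding start differed between genes with and without an intron, a split looked at after the data had been seen. The files do not annotate introns, and the 37 genes with an intron and the 20 without were taken from general knowledge of these genes. Over the first 250 bp of the coding region, which in most of these intron-bearing genes lies largely within the intron, Nup157 read a median of -0.04 in 31 probes of intron-bearing genes. In 14 probes of intronless genes it read 0.91. The lowest and highest probes were -0.82 and 1.40 with an intron and 0.14 and 1.22 without, so the groups overlap. All 14 intronless probes were above 0 and 15 of the 31 others were.

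The difference with Nup157 was -0.95 for intron-bearing minus intronless genes, with -0.85 and -1.01 in the hybridisations. With Nup170 it had the same sign and was smaller: -0.27 in wild type, -0.24 in the library labelled sir4∆ and -0.31 in the library labelled yku70∆. In the Nup170 wild-type library the medians were 0.37 and 0.64, and 30 of the 31 intron-bearing probes were above 0. Extract signal in this window lay within 0.26 of the array median on the log2 scale in both classes. With each array's trend of ratio on signal removed, the Nup157 difference was -0.36 and that of Nup170 in wild type -0.20. The part of signal level beyond this was not tested.

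Between 250 and 500 bp Nup157 read 0.38 in intron-bearing genes and 0.86 in intronless ones. Between 500 and 750 bp Nup157 read 0.77 and 0.75, and Nup170 in wild type read 0.73 and 0.84. From 750 to 1000 bp only 4 probes of intronless genes remained, and Nup157 read 0.68 with an intron and 0.09 without. Upstream, between 500 and 250 bp before the start, Nup157 read 0.56 in intron-bearing genes and 0.06 in intronless ones, and Nup170 in wild type read 0.75 and 0.43. Intron-bearing genes therefore had a dip at their start in the Nup157 library, with higher values on both sides. Over whole genes the classes read 0.39 and 0.50 with Nup157, and 0.60 in both with Nup170 in wild type. A dip at the start was also seen in large subunit genes, which were not split by intron. With Nup157 these read 0.35 in the 250 bp before the start, 0.01 in the first 250 bp and 0.33 between 250 and 500 bp.

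**Figure D3:**
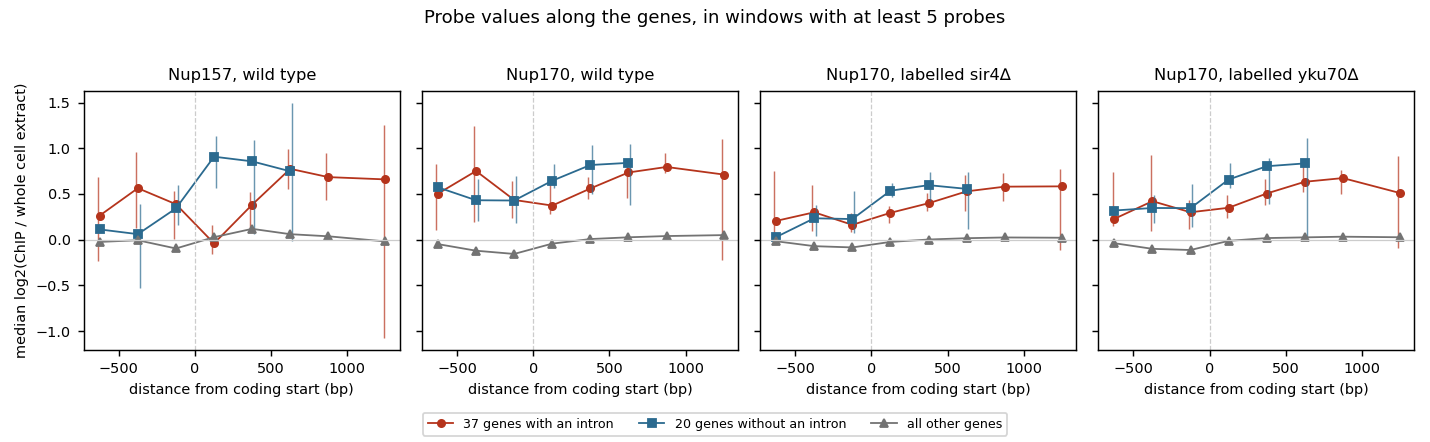
Medians of probe values, as log2(ChIP / whole cell extract), are plotted against distance from the coding start in bp for small subunit genes with an intron (red), without one (blue) and for all other genes (grey), with 95% order-statistic intervals over probes. With Nup157 the intron-bearing genes drop to -0.04 in the first 250 bp, where the intronless genes read 0.91, while other genes stay near 0 throughout.

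RPS15 is an intronless gene, and its probe 69 bp into the gene read 1.16 with Nup157 and 0.37 with Nup170 in wild type. Inside RPS14A, an intron-bearing gene, the 3 probes read -0.08, 0.24 and 1.31 with Nup157 from the start of the gene onward, and 0.19, 0.65 and 0.99 with Nup170 in wild type. ASC1 went against its class: its intron lies deep in the gene, and its first probe inside read 1.40 with Nup157.

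Probes inside neighbouring genes that encode no protein of the cytosolic ribosome read near the genome's median. Among these, 30 lie next upstream of a small subunit gene and run in the opposite direction. They were chosen by order and strand alone, so whether they share its promoter was not determined. Probes inside these 30 had a median of 0.04 with Nup170 in wild type. Of the 30, 1 was enriched, against 6.56% of all genes by inside probes. The small subunit genes beside them read 0.73. Among 33 convergent downstream neighbours the median was 0.06 and 2 were enriched, while the small subunit genes beside them read 0.66. With Nup157 the divergent and convergent neighbours read -0.06 and 0.03, against 0.54 and 0.49 in the small subunit genes. Fragments of about 400 bp join adjacent probes, so values at the edges of a gene are not independent of its neighbour.

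Genes that act on the small subunit but are no part of it read lower than its own genes with Nup170. In wild type the median was 0.00 for transcription factor genes, 0.03 for assembly factor genes and 0.11 for initiation factor genes, against -0.02 over all genes, and the median percentiles were 56.7, 64.6 and 80.6. Of 9 genes for transcription factors of ribosomal protein genes 0 were enriched in wild type, against 5.94% of all genes, with values from -0.13 (HMO1) to 0.15 (RAP1). Of 17 genes for 40S assembly factors 0 were, with a highest value of 0.23 in TSR1. Of 15 genes for initiation factors and other proteins on the 40S subunit 2 were: NIP1, an eIF3 subunit, at 0.36, and STM1, a ribosome preservation factor, at 0.32. With Nup157 the counts were 4 of 9, 3 of 17 and 4 of 15, against 19% of all genes.

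The comparison of Nup157 with Nup170 in wild type asks how the paralogues differ at these genes. The median difference, taken probe by probe, was -0.14 (-0.31 to -0.08), and 27 genes were lower with Nup157 by 0.20 or more on the log2 scale, against 26.3% of all genes. Higher by that much were 5 genes, against 25.1% of all genes. Below 0 were 43 of the 57 differences, against 52.1% of all genes. Subtracting each hybridisation of one library from each of the other gave medians from -0.37 to 0.05, so the sign of the median difference depended on which arrays were compared. Below 0 in all 4 such pairings were 20 genes, against 33.1% of all genes, and above 0 in all were 3, against 31.1%. The 82 large subunit genes had a median difference of -0.15, with 61 below 0, 34 lower by 0.20 or more and 5 higher.

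The genes given here from both ends of this comparison were chosen by the size of their difference. Each of them had pairings of one sign. RPS15 read 0.82 and 0.95 with Nup157 and 0.33 and 0.23 with Nup170, a difference of 0.61 with pairings from 0.49 to 0.72. RPS28B differed by 0.49 (0.30 to 0.69) and RPS28A by 0.41 (0.07 to 0.75). These were the 3 highest differences of the 57 genes. All 3 genes have no intron, as is so for 20 of the 57, and both RPS28 values rest on 1 upstream probe.

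At the other end, RPS27A differed by -0.92, with pairings from -1.49 to -0.34, and RPS30A by -0.80 (-1.09 to -0.52). RPS30B differed by -0.67 (-1.01 to -0.33) and RPS16A by -0.63 (-0.94 to -0.32). In each of these 4 genes both Nup157 hybridisations lay below both Nup170 hybridisations, and all 4 have an intron. RPS30A rests on 2 probes. Its inside probe read -1.10 with Nup157 and 0.30 with Nup170, and its upstream probe 0.29 and 0.49.

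The library labelled sir4∆ was set against the Nup170 wild-type library, which also serves as the reference of the other comparisons. The median difference over small subunit genes was -0.24 (-0.25 to -0.18), against 0.00 over all genes. Below 0 were 54 of the 57 differences, against 49.2% of all genes. Lower by 0.20 or more were 33 genes, against 3.32% of all genes, and 0 were higher, against 2.21%. The pairings of hybridisations gave medians from -0.46 to 0.01. In the pairing of the second arrays the median was 0.01, so the size of the difference lay within the disagreement of the 2 wild-type hybridisations, which differed from each other by a median of 0.32 over these genes. Below 0 in all 4 pairings were 24 genes, against 15.4% of all genes. The shift was not particular to the small subunit. Large subunit genes had a median difference of -0.21, with 77 of 82 below 0 and 42 lower by 0.20 or more.

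RPS16A had the lowest value in this comparison, at -0.47 with pairings from -0.81 to -0.14. RPS4A differed by -0.37 (-0.80 to 0.06), with pairings that crossed 0, and RPS19B by -0.35 (-0.55 to -0.15). RPS19B was compared over probes used in both libraries, so its near-blank probe did not enter. The highest genes were RPS21A at 0.05, RPS19A at 0.04, RPS29B at 0.02 and RPS22B at 0.00 after rounding, and pairings of all 4 crossed 0. RPS19A holds 1 near-blank probe, without which it read 0.30 in the library labelled sir4∆ and 0.36 in wild type.

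For the library labelled yku70∆ the median difference from wild type was -0.10 (-0.11 to -0.07), with pairings from -0.31 to 0.11. Below 0 were 48 differences, against 46.3% of all genes. Lower by 0.20 or more were 4 genes, against 1.11% of all genes, and higher were 0, against 1.43%. In all 4 pairings 1 gene was below 0, against 13% of all genes. RPS16A was again the lowest, at -0.29 (-0.58 to 0.01), followed by RPS4A at -0.25, RPS24A at -0.21 and RPS3 at -0.20. RPS15 was the highest at 0.10 (-0.04 to 0.24), followed by RPS1B, RPS30A and RPS21A, each at 0.04. No gene of either end had pairings of one sign. Large subunit genes had a median difference of -0.10, with 75 of 82 below 0, 9 lower by 0.20 or more and 0 higher.

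Ordered by gene value, 41 of the 57 genes read highest in wild type, next in the library labelled yku70∆ and lowest in the library labelled sir4∆, against 20.2% of all genes. The 3 comparisons share the Nup170 wild-type library, whose first hybridisation read higher than its second in 54 of the 57 genes. The place of wild type in this order cannot be told apart from the level of that array. Without wild type, the library labelled yku70∆ read above the library labelled sir4∆ in 48 of the 57 genes, against 54.4% of all genes. In the first hybridisations the medians of these libraries were 0.52 and 0.28, and in the second 0.45 and 0.44. The size of this difference therefore also depended on which arrays were compared.

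**Figure D4:**
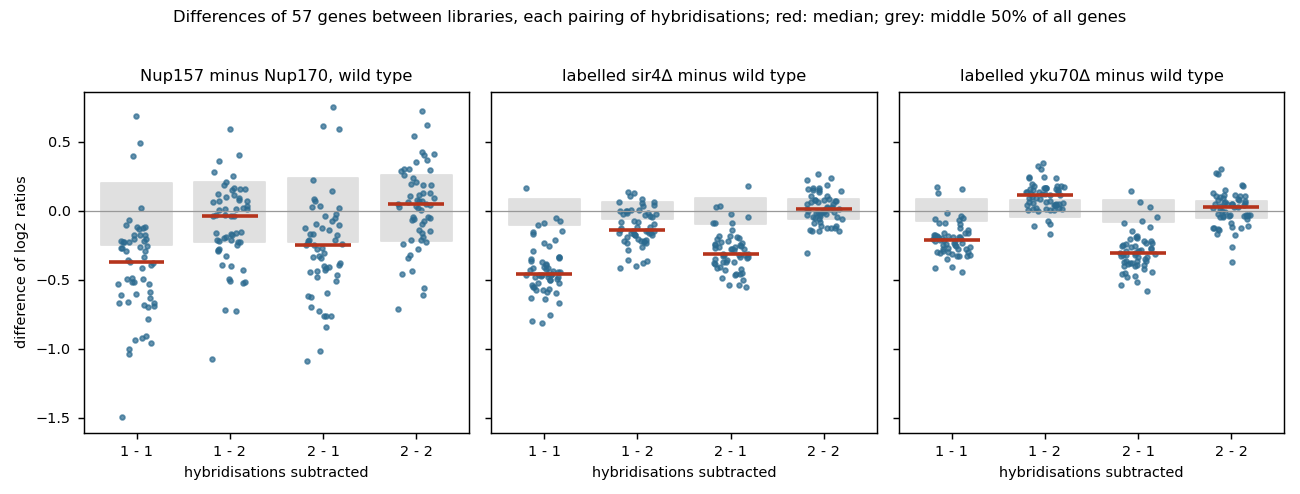
Differences of log2 ratios between libraries are shown for the 57 small subunit genes (points), with their median (red) and the middle 50% of all genes (grey), for each of the 4 pairings of hybridisations on the x axis. Medians move from -0.46 to 0.01 for the library labelled sir4∆, from -0.31 to 0.11 for the library labelled yku70∆ and from -0.37 to 0.05 for Nup157, all against Nup170 in wild type.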

How the data were processed

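The values are from Agilent 2-colour tiling arrays, with ChIP DNA in Cy5 and whole cell extract DNA in Cy3; Feature Extraction is named in the submitters' processing notes. The deposited intensity columns give spot brightness in each channel. The deposited log2 columns, per the file headers, hold the authors' normalised ratio for each hybridisation, and their combination weights the first hybridisation by 49.3%, 53.2%, 97.6% and 48.9% in the order Nup157, Nup170 wild type, sir4∆ and yku70∆. Deposited marks of another kind, 0 or 1, flag excluded spots and bound regions. P-value and score columns were not used here. No source used here names the genome build.

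Each hybridisation was centred on its median over nuclear probes, excluded spots were dropped, and both were averaged. A gene value is the mean over all probes annotated to the gene. Differences were taken probe by probe. With 1 library in each group no test was made; intervals are 95% order-statistic intervals over genes or probes and leave out the spread between cultures, and precision is limited by how few arrays there are. Near blank means extract signal within 2.6 SDs of the mean of 660 blank spots. RefSeq's gene table named 5639 of 5659 genes.

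Named genes are the 5 highest and 5 lowest with Nup170 in wild type, the 3 highest and lowest in each other library, the 4 highest and lowest of each difference, pairs of copies differing by 0.4 or more with the 3 least different, and single-copy genes. Of these, 3 genes enter all counts but are not reported by name here. Members and lists were chosen with earlier results of these data known. Alternatives were each hybridisation alone, the authors' combination, normexp correction with an offset of 50 (limma 3.58.1 in R 4.3.3), removal of the intensity trend, near-blank probes left out, the median in place of the mean over probes, probes inside or outside genes only, and differences in units of each library's lower-side SD. Scripts (Python 3.11.15, pandas 2.3.3, numpy 2.4.6) were tested on simulated data.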

Additional observations from a re-analysis of the deposited data

How the results depend on the processing

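Median values over small subunit genes stayed above 0 in all 4 libraries under every alternative tried. They rose with normexp correction to 0.58 (Nup157), 0.89 (Nup170 wild type), 0.58 (sir4∆) and 0.70 (yku70∆). In the library labelled sir4∆ probes inside genes gave 0.50, and probes outside them left 21 genes enriched. The share of all genes enriched by outside probes was not computed. In the library labelled yku70∆ the median was 0.56 inside, 0.38 outside and 0.42 with the intensity trend removed. Inside minus upstream stayed above 0: with normexp it was 0.45, 0.53, 0.63 and 0.63 in the 4 libraries, with the first Nup157 hybridisation 0.23, with the second yku70∆ hybridisation 0.34, and with the trend removed 0.064 for Nup157.

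Intron-bearing minus intronless genes over whole genes had no stable sign. It was -0.045 in the first hybridisation, -0.15 with normexp and 0.018 with the trend removed for Nup157. For Nup170 in wild type it was -0.015 in the second hybridisation, -0.0069 with normexp and 0.034 with the trend removed. With the label sir4∆ it was 0.0067 in the first hybridisation, 0.0046 in the authors' combination, -0.10 with normexp and -0.016 with the trend removed, and with the label yku70∆ 0.036 in the first hybridisation and 0.0091 with the trend removed. Over the first 250 bp the sign was the same in every library and alternative tried, and normexp gave -1.69 with Nup157, then -0.84, -0.78 and -0.84 with Nup170 in wild type, sir4∆ and yku70∆. The cause was not tested.

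Differences from Nup170 in wild type depended on the hybridisation. Nup157 gave -0.37 with the first arrays of both libraries and 0.048 with the second, the library labelled sir4∆ -0.46 and 0.010, and the library labelled yku70∆ 0.025 with the second. Pairing the first yku70∆ array with the second wild-type one gave 0.11, and the reverse -0.31. Genes lower by 0.20 on the log2 scale were counted too, an alternative added after seeing the data. For Nup157 they numbered 43 and 12 with the first and second arrays. For sir4∆ they numbered 1 with the second arrays and 21 by inside probes. For yku70∆ they numbered 29 and 2 with the first and second arrays, 16 with normexp and 16 by outside probes. These counts are of small subunit genes only, and the share of all genes was not computed under these alternatives. In units of each library's lower-side SD the differences were -1.76, -0.76 and 0.0014, a scale that takes in the wider spread of the Nup157 array. No paired analysis was possible because each group has 1 library. Without cultures in replicate, no spread between cultures could be given.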
